A study of Mus musculus with 16 samples.

Results

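The genes described here regulate the p53 response and the mitochondrial pathway of cell death in the embryonic mouse kidney. The selection lists 9 genes, and every probe set that the array's annotation assigns to one of them alone was taken. This gave 23 probe sets for 7 genes, out of 45037 probe sets and 18193 named genes: Mdm2 (3 probe sets), Cdkn1a (2), Bbc3 (1), Pmaip1 (1), Bcl2l11 (5), Bcl2 (5) and Mcl1 (6). Trp53 and Bax are also listed and were not analysed here. Each gene was represented by its probe set with the highest mean log2 signal over the 16 arrays, and the other probe sets were set beside it. The selection is a list of gene names, drawn up with earlier results of these data known.

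All samples came from the kidney rudiment of mouse embryos at E11.5, a stage at which the epithelium that forms the collecting ducts, the ureteric bud (UB), has grown into the metanephric mesenchyme (MM), the source of nephrons and stroma. The first group was wild-type UB separated by hand after collagenase digestion, with 3 to 9 buds pooled in each of 4 samples. The second was MM of Hoxa11, Hoxd11 double null embryos, which lack a pair of homeobox factors needed for kidney growth; 5 samples were cut by laser from frozen sections of urogenital ridges. The third was wild-type MM cut by laser from frozen sections of kidney rudiments, with 3 to 4 mesenchymes pooled in each of 4 samples. The fourth was wild-type MM separated by hand after the same digestion, 3 samples from 1 mesenchyme each. The labels describe separate embryos as replicates and give no strain. Source piece and pooling differ between null and wild-type captures together with genotype, so these cannot be told apart. UB and hand-dissected MM also differ in pooling, as do captured and hand-dissected wild-type MM. Each sample was 1 array, its RNA amplified in 2 rounds, and values are MAS5 signals, a linear brightness scaled to an equal trimmed mean on every array.

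The p53 protein is a transcription factor that accumulates when cells are damaged or stressed, and Mdm2 is both its target and the ligase that marks it for destruction. Its targets include Cdkn1a, which encodes the cyclin-dependent kinase inhibitor p21, and Bbc3 and Pmaip1, which encode the BH3-only death proteins Puma and Noxa. BH3-only proteins, among them Bim from Bcl2l11, bind survival proteins such as Bcl2 and Mcl1, and so free the pore formers that open the mitochondrion and start the caspase cascade. In the kidney, mice without Bcl2 are known to develop small, cystic kidneys, and loss of Bim is known to relieve that defect.

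The RefSeq promoter windows, from 250 bases before to 50 bases after an annotated start (mouse build GRCm38.p6), are shown for the 3 genes whose levels differed between UB and MM. Cdkn1a lies at chr17:29090979-29100722 and has 2 such windows. The upstream one, chr17:29090729-29091028 on the plus strand, is printed with capitals at its match to the p53 full-site consensus.
Cdkn1a upstream window: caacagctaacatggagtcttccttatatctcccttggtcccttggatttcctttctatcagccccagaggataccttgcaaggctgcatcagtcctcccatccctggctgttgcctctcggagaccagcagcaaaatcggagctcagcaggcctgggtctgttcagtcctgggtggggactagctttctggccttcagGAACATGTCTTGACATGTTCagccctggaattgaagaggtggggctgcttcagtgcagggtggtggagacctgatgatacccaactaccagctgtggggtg
The match covers chr17:29090928-29090947, and its first base lies 51 bases before that start and 2841 bases before the downstream start. It spans 20 bases with 1 base off the consensus, and the rule of at most 1 base off was set after the sequence had been seen. Such a match was present in 29 of 32851 windows over all genes (0.088%). Among the 10 windows of 6 of the genes described here it occurred in no other, and no window of Pmaip1 was used.

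Bcl2 lies at chr1:106538176-106714290 and Bcl2l11 at chr2:128126038-128162547. Their windows, chr1:106714241-106714540 on the minus strand and chr2:128125788-128126087 on the plus strand, are printed with capitals at every GC box (GGGCGG, either strand), the letters bound by Sp1-type factors.
Bcl2 window: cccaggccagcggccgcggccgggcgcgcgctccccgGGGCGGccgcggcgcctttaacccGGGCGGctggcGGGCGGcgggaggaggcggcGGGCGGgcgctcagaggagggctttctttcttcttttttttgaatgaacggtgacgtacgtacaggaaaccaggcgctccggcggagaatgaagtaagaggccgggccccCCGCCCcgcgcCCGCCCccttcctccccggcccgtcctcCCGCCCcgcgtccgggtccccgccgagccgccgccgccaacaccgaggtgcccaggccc
Bcl2l11 upstream window: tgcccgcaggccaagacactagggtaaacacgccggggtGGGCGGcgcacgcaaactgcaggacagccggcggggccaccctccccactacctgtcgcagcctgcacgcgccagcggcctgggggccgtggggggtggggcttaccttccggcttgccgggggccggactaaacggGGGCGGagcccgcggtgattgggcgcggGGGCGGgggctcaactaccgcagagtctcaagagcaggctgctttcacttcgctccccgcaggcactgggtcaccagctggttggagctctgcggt
The Bcl2 window held 7 GC boxes at a GC content of 76.0%, the Bcl2l11 window 3 at 71.0% and the upstream Cdkn1a window 0 at 54.7%, against a median GC content of 52.7% over all windows. A GC box was present in 9 of 10 windows of 6 of the genes, with no window of Pmaip1 used, and in 35.66% of all windows. The forkhead letters GTAAACA, on either strand, occurred in 3 of the 10 windows, those of Bcl2l11 shown here, Mdm2 and 1 of Bbc3, and in 3.65% of all windows. The letters TATAAA, on either strand, were also searched and occurred in none of these windows and in 13.62% of all windows. CACGTG occurred only in a window of Bbc3, and in 7.15% of all windows. Windows of 1 gene can overlap, as chr7:16310011-16310310 and chr7:16310181-16310480 of Bbc3 do, so the 10 are not separate promoters. The p53 half-site, searched with no base off, occurred in 2 of the 10 windows, the upstream Cdkn1a window and the Mdm2 window, and in 8.36% of all windows. A match is a description of these letters and not of binding.

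Facts of the whole series bear on what follows. Array medians ran from 112.7 to 209.2, no pair of arrays was identical, and 1 library stood apart: null replicate 1 correlated with its group at a median r of 0.896, against 0.928 to 0.933 for the other nulls. Hoxa11 averaged 124 ± 44.5 in null and 709 ± 147 in wild-type captured MM (SD, n = 5 and 4). Its log2 difference was -2.24 ± 0.34 (SE, limma adjusted p = 0.0114). The limma adjusted p was 0.0542, 0.0583 and 0.0656 without wild-type captured replicates 1, 2 and 3, and 0.0846 with replicate numbers fitted as a block. Hoxd11 averaged 341 ± 121 in null and 435 ± 115 in wild-type captured MM (log2 difference -0.35, limma adjusted p = 0.635); whether its probes lie in the deleted part is not known here. The labelled tissues carried their markers: the summed signal of 11 ureteric bud genes was 200932.9 to 246624.4 in UB and 3415.4 to 4049.2 in hand-dissected MM, and that of 10 nephron progenitor genes was 1715.6 to 2584.8 in UB and 74431.8 to 91667 in hand-dissected MM. Captured MM carried bud markers too, at 16846.7 to 51528.2 in null and 12020.6 to 65357 in wild-type samples. In bulk tissue, fewer cells of a type and less RNA per cell cannot be told apart.

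**Figure D1:**
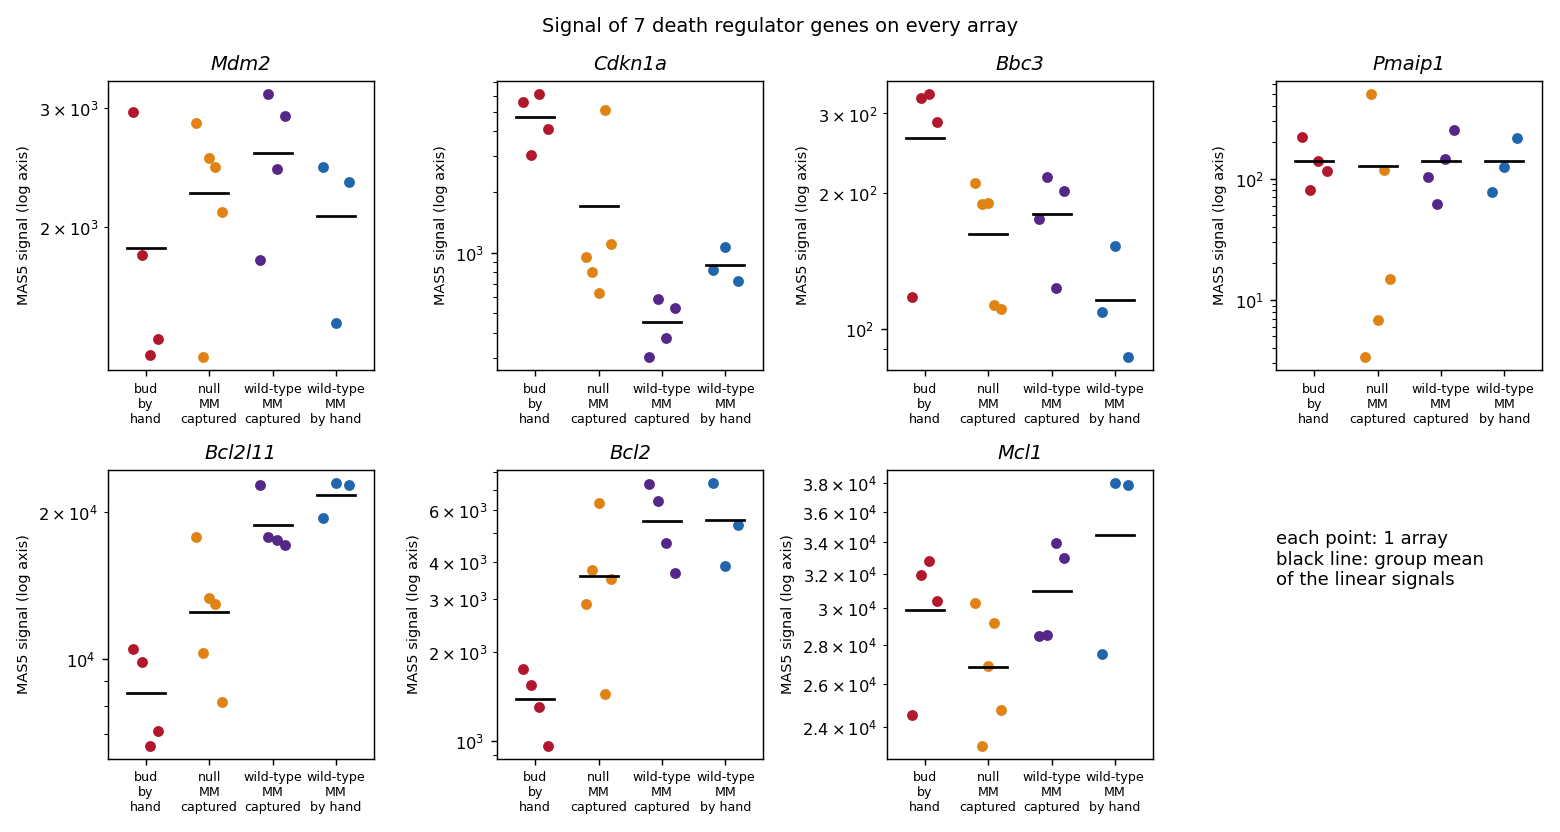
Signal of each gene's brightest probe set on every array (log axis, MAS5 signal), with groups from left to right UB by hand, null MM captured, wild-type MM captured and wild-type MM by hand; points are arrays and black lines are means of the linear signals. Cdkn1a is at 3051.8 or above on the 4 UB arrays and at 5075.6 on 1 null array, Bcl2l11 and Bcl2 are lowest on average in UB, and Mcl1 spans 23156.6 to 38023.4 over all groups.

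Wild-type UB against wild-type MM, both dissected by hand, asked which of these genes differ between the epithelium and the mesenchyme. Cdkn1a was higher in UB, and Bcl2l11 and Bcl2 were lower in UB, so the cell-cycle inhibitor and the death and survival regulators did not move one way. These were 3 of 7 genes called at a limma adjusted p below 0.05, against 28.5% of all 12435 genes tested (13.9% higher and 14.6% lower), a background against which 3 of 7 does not set these genes apart. That balance depends on the scaling: over probe sets 2952 were higher and 2749 lower, against 4015 and 2204 after median centring. The other 4 genes were not called. The groups did not overlap for the same 3 of 7 genes, against 36.4% of all genes tested.

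Cdkn1a, whose p21 product halts cells before DNA replication, had 5572.6, 3051.8, 6102.6 and 4090.3 on the UB arrays, against 816.3, 1060.8 and 721.7 on the hand-dissected MM arrays. Every UB array was above every MM array. The means were 4704 ± 1392 in UB and 866 ± 175 in MM (SD, n = 4 and 3), a 5.43-fold ratio, and the log2 difference was 2.36 ± 0.27 (SE; limma adjusted p = 5.74e-05). It ranged from 2.22 to 2.55 with 1 array left out and was 2.88 with the 3 hand-dissected and 4 captured wild-type MM arrays in 1 group. The second Cdkn1a probe set, 1421679_a_at, was above the array median on 0 of 16 arrays and was not tested.

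Bcl2l11, the gene of the BH3-only killer Bim, had 10483.1, 9833.6, 6638.5 and 7101.7 in UB, against 19429.2, 22979.1 and 22780.6 in hand-dissected MM. The groups did not overlap, and the lowest MM array was above the highest UB array. Means were 8514 ± 1926 in UB and 21730 ± 1995 in MM, 2.55-fold lower in UB, with a log2 difference of -1.37 ± 0.19 (limma adjusted p = 0.000257, n = 4 and 3). Of its other 4 probe sets, 1456005_a_at was lower in UB by a log2 difference of -2.20 (limma adjusted p = 0.000159) and 1456006_at by -0.97 (0.0464). Probe sets 1426334_a_at and 1435449_at had log2 differences of -0.66 (limma adjusted p = 0.129) and -0.11 (0.870). All 5 probe sets had a negative sign, and 3 passed the test, against 23.9% of all probe sets tested. Probe sets of 1 gene are not independent of each other. Probe set 1456005_a_at averaged 3049 in UB and 3047 in wild-type captured MM, against 13277 in hand-dissected MM. Its difference was thus absent against captured MM, whereas every other Bcl2l11 probe set averaged higher in wild-type captured MM than in UB.

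Bcl2, which holds the mitochondrial pore formers in check, had 1741.5, 1540.3, 1298.2 and 966.9 in UB, against 7377.6, 3865.0 and 5343.0 in hand-dissected MM. Again no UB array reached the lowest MM array. The means were 1387 ± 333 in UB and 5529 ± 1764 in MM, 3.99-fold lower in UB (log2 difference -1.95 ± 0.28, limma adjusted p = 0.000283, n = 4 and 3). Probe sets 1437122_at and 1443837_x_at were also lower in UB, with log2 differences of -1.19 (limma adjusted p = 0.00657) and -1.81 (0.00117). Probe set 1422938_at, at -0.54, missed the threshold (limma adjusted p = 0.122), and 1440770_at was too dim in both groups to be tested, at means of 64.8 in UB and 150 in MM. Probe set 1422938_at averaged 444 in UB and 407 in wild-type captured MM. Every other Bcl2 probe set averaged higher in wild-type captured MM than in UB.

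Mcl1, the short-lived survival protein of the same family, had 24519.3, 31968.8, 32783.9 and 30407.7 in UB, against 27544.2, 38023.4 and 37837.7 in hand-dissected MM. These values overlapped, and the log2 difference was -0.20 ± 0.15 (95% interval -0.53 to 0.13, limma adjusted p = 0.380). None of its 6 probe sets was called, with log2 differences between -0.28 and -0.11 and limma adjusted p of 0.323 to 0.734. The interval excludes a difference of the size seen for Bcl2, whose own upper bound was -1.35.

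Mdm2, the p53 ligase, had 2956.5, 1817.2, 1293.6 and 1365.1 in UB, against 2449.2, 1440.3 and 2325.1 in hand-dissected MM, with overlap and a log2 difference of -0.20 ± 0.31 (95% interval -0.88 to 0.49, limma adjusted p = 0.691). A second Mdm2 probe set, 1427718_a_at, had the opposite sign at 0.52 (limma adjusted p = 0.368), and the third, 1457929_at, was above the array median on 0 of 16 arrays. The data therefore give no direction for Mdm2.

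The p53-induced BH3-only genes were dim. Bbc3, the gene of Puma, had 117.4, 324.9, 331.1 and 287.2 in UB, against 108.9, 152.6 and 86.6 in hand-dissected MM, and was above the array median on 9 of 16 arrays over the whole series. One UB array lay within the MM range and the other 3 lay above it. The means were 265 ± 100.4 in UB and 116 ± 33.6 in MM, with a log2 difference of 0.93 ± 0.35 (95% interval 0.17 to 1.69) that missed the threshold (limma adjusted p = 0.0750) and passed it without UB replicate 1 (1.22, 0.00626), with array weights (1.26, 0.00178) and after quantile, median or loess scaling (1.07, 1.06 and 1.02, with 0.0469, 0.0426 and 0.0497). Pmaip1, the gene of Noxa, had 220.4, 80.8, 139.8 and 115.1 in UB, against 78.0, 124.1 and 216.9 in MM, with a log2 difference of 0.01 ± 0.36 (95% interval -0.78 to 0.81, limma adjusted p = 0.985).

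Cell types other than those named moved with this comparison. All 8 tested stromal, all 7 endothelial, 4 of 5 macrophage and 5 of 8 erythroid markers were lower in UB than in hand-dissected MM. Of 9 nephron progenitor markers, 8 were lower and 1, Cited1, was higher. Cited1 averaged 256 ± 57.7 in UB and 61.8 ± 49.5 in hand-dissected MM (log2 difference 1.70, limma adjusted p = 0.00629). The part of these cell types in the lower Bcl2 and Bcl2l11 was not tested. Of 23 tested immediate-early and stress genes, 6 were lower and 2 higher in UB, against 14.6% lower and 13.9% higher over all genes tested. Their median log2 difference was 0.03. Fos was lower in UB (-1.50, limma adjusted p = 0.000433) and Ier2 higher (1.08, 0.0484). The part of stress genes in the differences between UB and MM was not tested. The 3' to 5' signal ratio of the Gapdh control probes was 6.53 to 12.2 in UB and 22.1 to 69.3 in hand-dissected MM. That of the Actb control probes overlapped, at 10.9 to 16.3 in UB and 11.1 to 17.9 in hand-dissected MM. The part of either ratio in these differences was not tested.

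**Figure D2:**
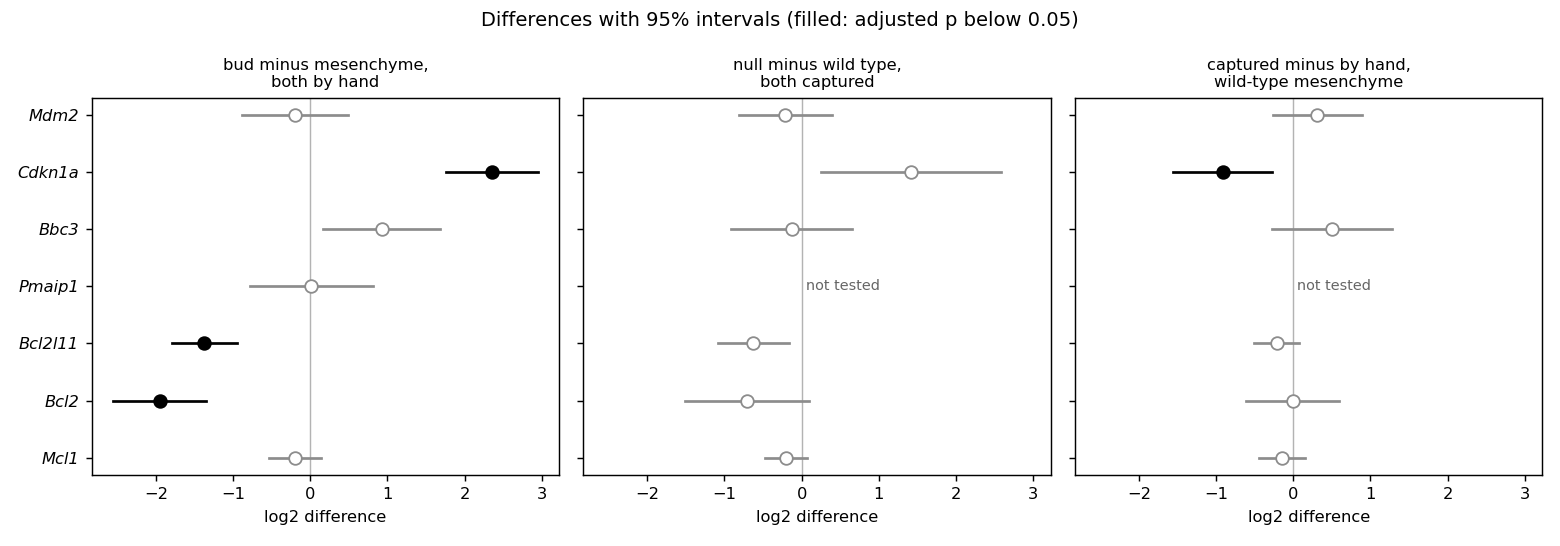
Log2 difference of each gene's brightest probe set in the 3 comparisons, with 95% intervals; filled points have a limma adjusted p below 0.05. In UB minus MM, Cdkn1a stands at 2.36 and Bcl2l11 and Bcl2 at -1.37 and -1.95; in null minus wild type no interval belongs to a called gene; in captured minus hand-dissected MM only Cdkn1a, at -0.91, is filled.

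Counts were also taken over 9 lists of the pathway, which include these 7 genes. In UB against hand-dissected MM, 12 higher and 7 lower calls were made among 78 genes tested, those of Cdkn1a, Bcl2l11 and Bcl2 included. This was 24.4% against 28.5% of all genes tested. An unadjusted p below 0.05 was found for 30 of the 78, 38.5% against 41.2% of all genes tested, so neither share exceeded the background. Both tested pore formers of the Bcl2 family were higher in UB. Bak1, a pore former that Mcl1 holds in check, had 221.1, 433.7, 514 and 597.8 in UB, against 77.5, 185.9 and 73.8 in MM (log2 difference 1.69 ± 0.36, limma adjusted p = 0.00543). Bok, a pore former that escapes Bcl2 control, had 2538.5, 3678.2, 3622.7 and 4016.9 in UB, against 1007.9, 1540 and 1384.5 in MM (log2 difference 1.38 ± 0.24, limma adjusted p = 0.00132). For both genes every UB array was above every MM array, and the calls held with any 1 array left out, although that of Bak1 was lost with those 7 MM arrays together (0.64, limma adjusted p = 0.449).

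Of 9 tested BH3-only genes, 2 were higher in UB and 1, Bcl2l11, was lower. Bid, which links death receptors to the mitochondrion, averaged 1350 ± 330 in UB and 526 ± 88.2 in MM (log2 difference 1.28, limma adjusted p = 0.00265, but 0.65 and 0.0702 as a mean of its probe sets). Bik, a BH3-only protein of the endoplasmic reticulum, averaged 704 ± 146 in UB and 265 ± 98.5 in MM (log2 difference 1.32, limma adjusted p = 0.00400, but 0.81 and 0.101 with the 7 MM arrays together). The list as a whole had a median log2 difference of 0.07, against 0.01 over all genes tested.

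Of 4 tested survival genes of the Bcl2 family, Bcl2 alone was called, and the median log2 difference was -0.32. The apoptosome and caspase list had 2 higher and 1 lower of 12. Casp8, the initiator caspase below death receptors, averaged 4730 ± 707 in UB and 2219 ± 662 in MM (log2 difference 1.11, limma adjusted p = 0.00690). Casp9, the initiator caspase of the mitochondrial pathway, averaged 5905 ± 2039 in UB and 13854 ± 1454 in MM (log2 difference -1.27, limma adjusted p = 0.00191), and its call was lost when all its probe sets were averaged (-0.56, 0.0685) or the 7 MM arrays were taken as 1 group (-0.58, 0.284). None of 5 tested inhibitors of apoptosis and none of 6 tested death receptor genes was called by limma, with 0 and 1 at an unadjusted p below 0.05.

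The p53 targets did not share a direction. Among 22 tested targets of arrest and repair, 3 were higher in UB and 4 were lower, with a median log2 difference of 0.03. The higher genes were Cdkn1a, Sesn2 and Cdc25c, and Cdc25c (0.82, limma adjusted p = 0.0431) was called in 7 of 18 other settings. The list was not divided by whether p53 raises or lowers a gene, so its directions do not measure p53 activity. Sesn1, a sestrin that restrains mTORC1, averaged 3572 ± 844 in UB and 7227 ± 576 in MM (log2 difference -1.04, limma adjusted p = 0.00487), and Plk2, a polo-like kinase, averaged 2822 ± 520 in UB and 7633 ± 157 in MM (log2 difference -1.44, limma adjusted p = 0.000283). Among 8 tested death targets, Perp and Aen were higher in UB. Perp, a membrane protein of epithelial junctions, averaged 455 ± 141 in UB and 106 ± 26.5 in MM (log2 difference 1.76, limma adjusted p = 0.000933, but 0.0804 in a fit over all 16 arrays), and Aen, a nuclease, averaged 6753 ± 743 in UB and 3306 ± 567 in MM (log2 difference 1.03, limma adjusted p = 0.00259). The 1 call among 13 tested p53 family members and regulators was Trp63, a p53 relative of epithelia, at a log2 difference of 1.56 (limma adjusted p = 0.0178), lost as a mean over its probe sets (0.40, 0.249), in a fit over all 16 arrays (1.56, 0.148) and without hand-dissected MM replicate 6 (1.30, 0.0684) or 7 (1.54, 0.0583).

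**Figure D3:**
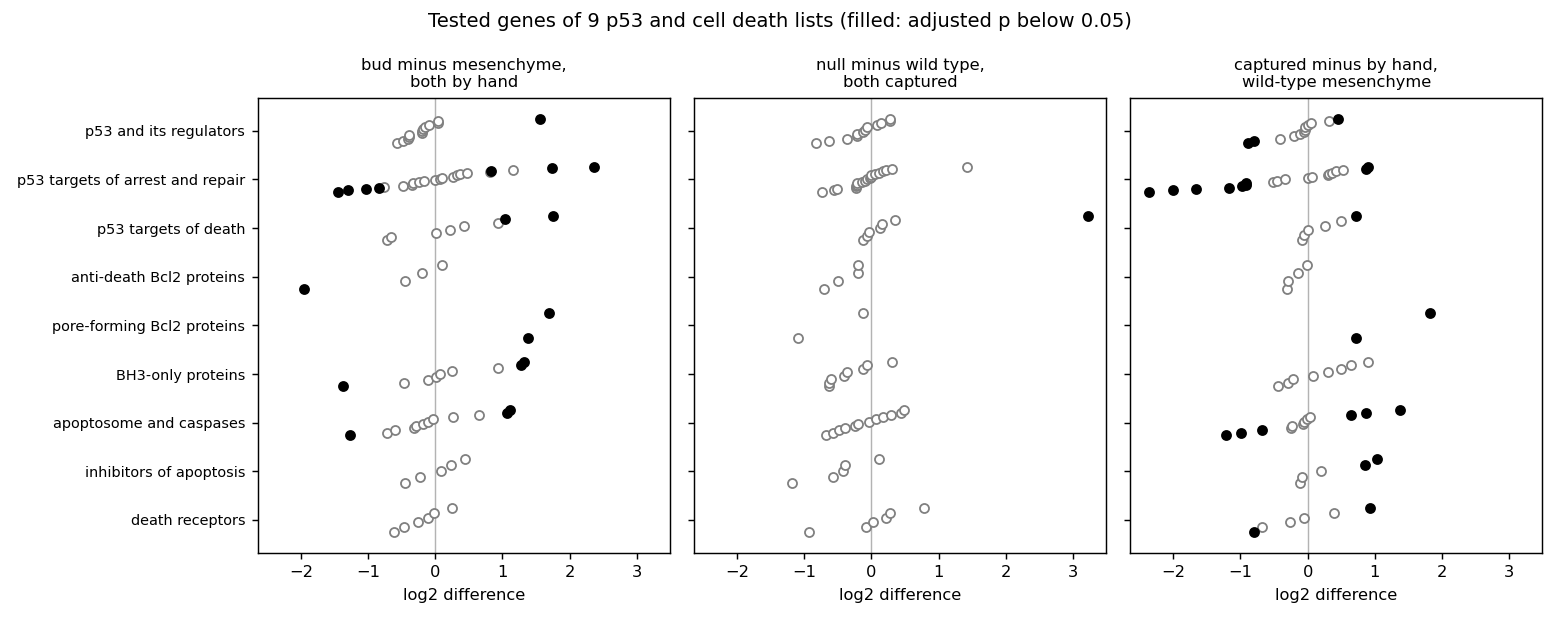
Log2 differences of the tested genes of 9 lists of p53 and cell death genes in the 3 comparisons, 1 point per gene; filled points have a limma adjusted p below 0.05. Both pore formers are filled on the right in UB minus MM and in captured minus hand-dissected MM, and 1 point, Perp at 3.22, is filled in null minus wild type.

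The captured MM of null embryos was set against that of wild-type embryos to ask whether loss of Hoxa11 and Hoxd11 altered these genes. None of 6 tested genes was called by limma, against 1.74% of all 12161 genes tested (0.748% higher and 0.995% lower), and 2 of them, Cdkn1a and Bcl2l11, had an unadjusted p below 0.05, as had 19.1% of all genes tested. Over probe sets, 138 were higher and 273 lower, against 136 and 71 after median centring. Pmaip1 was too dim to be tested. The intervals were wide, and a missed threshold does not show equal levels. The median log2 difference of all genes tested was -0.10.

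Cdkn1a had 946.6, 801.8, 629.1, 5075.6 and 1108.4 in null MM, against 304.4, 590.7, 377.0 and 532.1 in wild-type captured MM. Every null array was above every wild-type array, as for 9.03% of all genes tested, and null replicate 4 was far above the rest. The log2 difference was 1.42 ± 0.53 (95% interval 0.25 to 2.59, limma adjusted p = 0.187). Without null replicate 4 it was 0.91 (limma adjusted p = 0.168). Over 20 other settings the difference ran from 0.80 to 1.72 and the limma adjusted p from 0.0592 to 0.362, so the gene was called in none.

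Null replicate 4 also had the highest summed signal of 7 neuronal and neural crest genes, 29357.4, against 3638.7 to 17956.2 on the other nulls and 2847.1 to 5528.9 in wild-type captured MM. It had the lowest summed signal of 10 nephron progenitor genes, 20741, against 42669.1 to 95053 on the other nulls and 39178.6 to 75267.9 in wild-type captured MM. Btg2, another antiproliferative p53 target, was likewise highest there, at 6022.7 against 546.3 to 2253 on the other nulls and 874.4 to 1629.2 in wild-type captured MM (log2 difference of the groups 0.30, limma adjusted p = 0.814). Its immediate-early sum, over 24 genes, was 42782.5, the highest of the nulls and within the wild-type range of 35026.1 to 42855.1. The part of other cell types in its Cdkn1a signal was not tested.

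Bcl2l11 had 17757.9, 10263.8, 13363.5, 12974.9 and 8155.0 in null MM, against 22738.9, 17754.7, 17536.3 and 17110.5 in wild-type captured MM. A single null array, replicate 1, lay within the wild-type range and the other 4 lay below it. The means were 12503 ± 3623 in null and 18785 ± 2649 in wild-type MM, and the log2 difference was -0.63 ± 0.21 (95% interval -1.09 to -0.17, limma adjusted p = 0.146). Leaving out null replicate 1, the library that stood apart, gave -0.76 and a call (limma adjusted p = 0.0296), and weighting arrays by their quality gave -0.65 and a call (0.0421). It was uncalled in the other 18 of 20 settings, with -0.32 after median centring (0.457), -0.48 with the replicate block (0.208) and -0.48 without null replicate 5 (0.202). Of the other 4 Bcl2l11 probe sets none was called, and their log2 differences were -1.02, -0.87, -0.55 and 0.19.

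Bcl2 had 2895.3, 3769.8, 6305.6, 1444.2 and 3519.3 in null MM, against 7319.8, 6397.2, 4638.8 and 3679.5 in wild-type captured MM, with overlap and a log2 difference of -0.71 ± 0.37 (95% interval -1.52 to 0.09, limma adjusted p = 0.324). Its other 4 probe sets had log2 differences of -1.67 to -0.51, all uncalled. Mcl1 had 30333.7, 23156.6, 26918.6, 29202.8 and 24751.9 in null MM, against 28459.0, 28520.3, 33971.5 and 32972.5 in wild-type captured MM (log2 difference -0.21 ± 0.12, 95% interval -0.48 to 0.06, limma adjusted p = 0.396). For both survival genes the groups overlapped.

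Mdm2 had 2845.9, 1283.5, 2529.4, 2452.0 and 2101.2 in null MM, against 1782.5, 3139.4, 2435.9 and 2918.1 in wild-type captured MM (log2 difference -0.21 ± 0.27, 95% interval -0.81 to 0.39, limma adjusted p = 0.723). Bbc3 had 210.8, 188.6, 189.5, 112.6 and 110.7 in null MM, against 175.2, 216.8, 123.1 and 202.1 in wild-type captured MM (log2 difference -0.13 ± 0.36, 95% interval -0.91 to 0.65, limma adjusted p = 0.875). Both sets of values were interleaved, and the signs for Mdm2, Bbc3 and Mcl1 turned when arrays were centred on their medians. Pmaip1 had 3.4, 497.2, 6.9, 117.3 and 14.9 in null MM, against 102.6, 61.5, 146.1 and 252.6 in wild-type captured MM. The 3 lowest signals of the gene in the whole series were null arrays, and so was the highest.

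Across the 9 pathway lists, limma called 1 of 73 tested genes, 1.37% against 1.74% of all genes tested, and 16 had an unadjusted p below 0.05, 21.9% against 19.1%. The called gene was Perp, with 4190.4, 296.6, 564.6, 1561.6 and 2285.9 in null MM, against 165, 95.1, 157.2 and 29 in wild-type captured MM. No null array reached down to the wild-type range, and the null arrays spread over a wide range. Markers of other tissues also spread widely over the null arrays. The summed signal of 6 gonad and coelomic genes was 9943.4, 11721, 9250.4, 3284 and 40546.6 on null replicates 1 to 5, against 1597.7 to 4639 in wild-type captured MM. Of these 6 genes, 2, 1, 2, 2 and 6 were above the array median on null replicates 1 to 5, and 1 to 3 in wild-type captured MM. The sum thus rested on few of them outside null replicate 5. Only Wnt4 was bright enough to test (log2 difference 1.62, not called), and it averaged 2850 ± 1368 in wild-type captured MM. Of 6 tested neuronal and neural crest genes 1, Ina, was called higher in null MM, and their median log2 difference was 1.34. Trp63, untested here, had 1301.4 and 820.4 on null replicates 1 and 4, against 93.4 to 276.2 on the other nulls and 43.2 to 128.7 in wild-type captured MM. The part of these cell types in the Perp signal was not tested. For Perp the log2 difference was 3.22 ± 0.69 (limma adjusted p = 0.0440), and it was called in 8 of 20 other settings. Among the losses were those without any 1 of the wild-type arrays (0.0916, 0.125, 0.114 and 0.144 for replicates 1 to 4). The Perp call was also lost without null replicate 3 (0.0586), 4 (0.0664) or 5 (0.0767) and with replicate numbers fitted as a block (2.995, 0.111). Among genes that were not called, Mdm4, the p53-binding partner of Mdm2, averaged 3935 ± 1286 in null and 6746 ± 892 in wild-type captured MM (log2 difference -0.83, limma adjusted p = 0.107), and Bak1 averaged 205 ± 66.4 in null and 473 ± 107 in wild-type captured MM (-1.09, 0.126).

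Of the cell cycle genes, 1 of 14 tested was called higher in null MM and none lower. That gene was Top2a, a topoisomerase of dividing cells, at 52858 ± 2470 in null and 33283 ± 3782 in wild-type captured MM (log2 difference 0.67, limma adjusted p = 0.0155). Top2a was called in 12 of 20 other settings. Among the losses were those without wild-type captured replicate 1, 2 or 3 (limma adjusted p = 0.0542, 0.0723 and 0.0647). The call was also lost as a mean over its probe sets (0.35, 0.565) and with replicate numbers fitted as a block (0.66, 0.111). The macrophage markers, which mark cells that clear dying neighbours, summed to 1168.3 to 14069.4 in null and 11155.8 to 21547.1 in wild-type captured MM. Of 7 tested, 1 was called lower and 6 had an unadjusted limma p below 0.05, as had 19.1% of all genes tested. Their median log2 difference was -2.285, against -0.101 over all genes tested. The part of macrophages in any difference given here was not tested.

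A last comparison set captured against hand-dissected MM within the wild type. Captured samples pooled 3 to 4 mesenchymes and hand-dissected samples held 1, so method and pooling cannot be told apart. This comparison shares the wild-type captures with the null comparison and the hand-dissected arrays with the UB comparison. The 3 sets of differences are therefore not independent of each other. Of 6 tested genes, 1 was called, Cdkn1a, lower after capture, against 23.5% of all 12172 genes tested (13.6% higher and 9.88% lower). Over probe sets 3857 were higher and 2009 lower, a balance that turned with the scaling, to 2435 and 3207 after median centring and 2932 and 2575 after quantile normalization. The remaining 5 were not called by their brightest probe set, and Pmaip1 was not tested.

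Cdkn1a had 304.4, 590.7, 377.0 and 532.1 in captured MM, against 816.3, 1060.8 and 721.7 in hand-dissected MM. The groups did not overlap, as for 34.1% of all genes tested, with means of 451 ± 133 in captured and 866 ± 175 in hand-dissected MM, 1.92-fold lower after capture (log2 difference -0.91 ± 0.29, limma adjusted p = 0.0403). The call was lost without captured replicate 1 (0.0835) or 3 (0.0722) and without hand-dissected replicate 5 (0.0845), 6 (0.141) or 7 (0.0731), where the difference ran from -1.03 to -0.76. It was also lost without a filter (-0.91, 0.0798), in a fit over all 16 arrays (-0.91, 0.251) and as a mean of both probe sets (-0.42, 0.229). Ordered by mean signal, Cdkn1a was highest in UB, then null captured, hand-dissected and wild-type captured MM, and only the last step separated groups without overlap.

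Stress genes moved with that difference. Of 23 tested immediate-early genes, 13 were lower and 1 was higher in captured MM, with a median log2 difference of -1.62 against 0.08 over all genes tested, and the sum over 24 such genes was 35026.1 to 42855.1 in captured and 125596.9 to 228581.5 in hand-dissected MM. In the p53 targets of arrest and repair, 7 of 19 were lower and 2, Rps27l and Cdc25c, were higher after capture, with a median of -0.34. Here too the list was not divided by whether p53 raises or lowers a gene. Gadd45a, a stress-induced growth arrest gene, had 172.1, 515.6, 402.1 and 211.1 in captured MM, against 1600.6, 1163.5 and 1183.2 in hand-dissected MM (limma adjusted p = 0.00305). Btg2 had 874.4, 1629.2, 1403.1 and 1567.7 in captured MM, against 3288.4, 7744.5 and 13448.3 in hand-dissected MM (log2 difference -2.36 ± 0.40, limma adjusted p = 0.00244). Ddit4, an mTORC1 inhibitor induced by stress, averaged 1510 ± 336 in captured and 4916 ± 1480 in hand-dissected MM (log2 difference -1.66, limma adjusted p = 0.00206). For Gadd45a and Btg2 no captured array reached the lowest hand-dissected array, and the part of the immediate-early genes in the lower Cdkn1a was not tested. Markers of other cells moved too: 10 of 11 tested bud, 5 of 8 erythroid and 2 of 6 macrophage markers were higher in captured MM. Of 8 stromal markers 4 were lower and 2 higher, and of 8 nephron progenitor markers 1, Six2, was lower (log2 difference -2.28, limma adjusted p = 0.000345). Their part in the differences between methods was not tested.

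The probe sets of Bcl2 disagreed between methods. The brightest had 7319.8, 6397.2, 4638.8 and 3679.5 in captured MM, against 7377.6, 3865.0 and 5343.0 in hand-dissected MM, with a log2 difference of -0.01 ± 0.27 (95% interval -0.61 to 0.59, limma adjusted p = 0.990). Probe set 1440770_at had 1976.9, 3009.2, 861.0 and 1368.2 in captured MM, against 116.0, 147.3 and 187.6 in hand-dissected MM (log2 difference 3.18 ± 0.38, limma adjusted p = 0.000559). Probe sets 1437122_at and 1443837_x_at were 3.03-fold and 3.21-fold higher after capture (limma adjusted p = 0.0122 and 0.00387), and 1422938_at had a log2 difference of -0.66 (0.0974). Thus 3 of 5 Bcl2 probe sets were called higher, against 24.8% of all probe sets called in either direction, while the brightest was level. As a mean over all its probe sets, Bcl2 was called higher after capture (1.13, limma adjusted p = 0.0105). The place of each probe set in the transcript was not used here, and its part in this was not tested.

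The probe sets of Bcl2l11, the Bim gene, were split as well. Its brightest probe set had 22738.9, 17754.7, 17536.3 and 17110.5 in captured MM, against 19429.2, 22979.1 and 22780.6 in hand-dissected MM (log2 difference -0.22 ± 0.14, 95% interval -0.51 to 0.08, limma adjusted p = 0.268), and it was called lower after median centring (-0.41, 0.0387). Probe set 1456005_a_at had 3768.2, 2959.6, 2564.6 and 2896.7 in captured MM, against 11835.1, 15079.7 and 12917.0 in hand-dissected MM, 4.36-fold lower after capture (log2 difference -2.12 ± 0.18, limma adjusted p = 0.000133). The first pair of groups overlapped and the second did not. Between methods, neither Bcl2 nor Bcl2l11 had 1 direction over all its probe sets. In UB against hand-dissected MM every tested probe set of both genes had a negative sign.

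**Figure D4:**
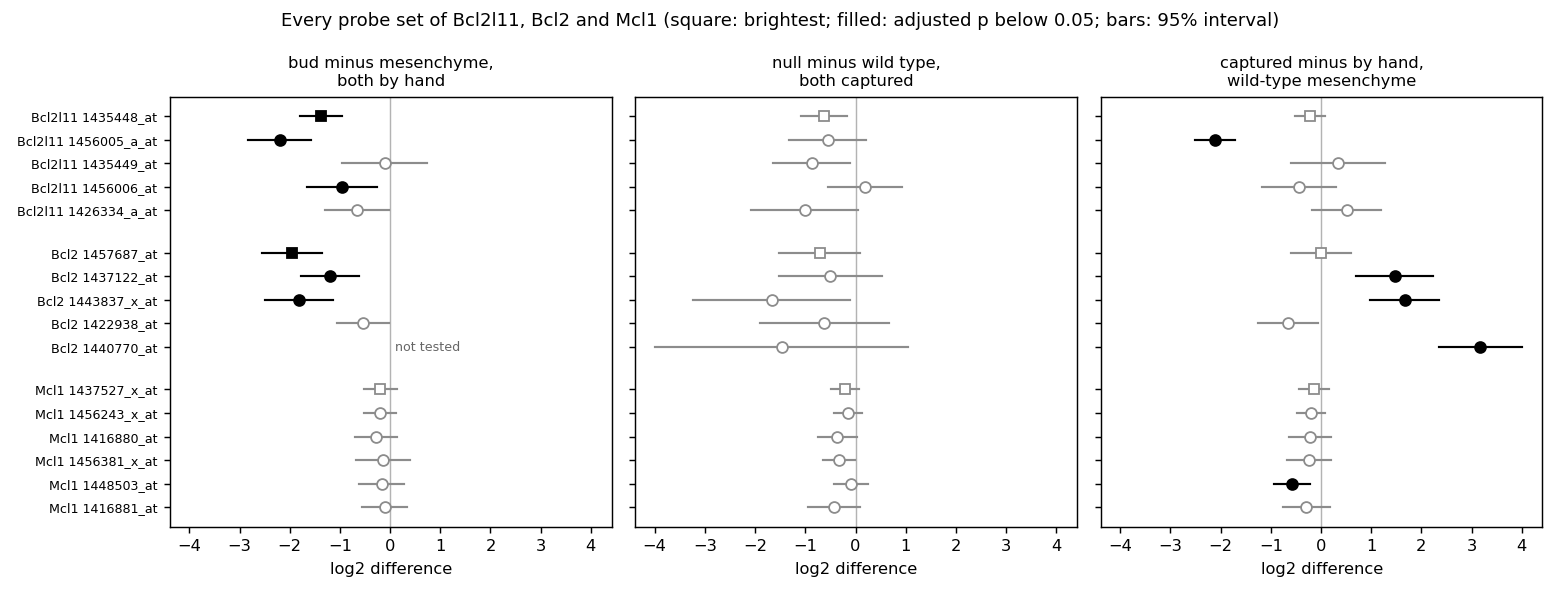
Log2 differences with 95% intervals for the 16 probe sets of Bcl2l11, Bcl2 and Mcl1 in the 3 comparisons, where tested (Bcl2 probe set 1440770_at has no interval in UB minus MM); squares mark each gene's brightest probe set, and filled symbols have a limma adjusted p below 0.05. In captured minus hand-dissected MM the Bcl2 probe sets run from -0.66 to 3.18 and those of Bcl2l11 from -2.12 to 0.51, while those of Mcl1 stay between -0.57 and -0.14.

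Mcl1 had 28459.0, 28520.3, 33971.5 and 32972.5 in captured MM, against 27544.2, 38023.4 and 37837.7 in hand-dissected MM (log2 difference -0.14 ± 0.13, 95% interval -0.44 to 0.15, limma adjusted p = 0.467), and 1 of its 6 probe sets, 1448503_at, was lower after capture (-0.57, 0.0261). Mdm2 averaged 2569 ± 601 in captured and 2072 ± 550.2 in hand-dissected MM (log2 difference 0.31 ± 0.26, 95% interval -0.27 to 0.89, limma adjusted p = 0.417). Bbc3 averaged 179 ± 41.2 in captured and 116 ± 33.6 in hand-dissected MM (log2 difference 0.50 ± 0.35, 95% interval -0.27 to 1.27, limma adjusted p = 0.322). None of these 3 brightest probe sets separated the methods.

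Over the 9 lists, which include the genes described here, 12 genes were higher and 13 lower among 72 tested, Cdkn1a among the lower. This was 34.7% called against 23.5% of all genes tested, and 35 had an unadjusted p below 0.05, 48.6% against 37.1%. The lists were described without a test. Both pore formers were higher after capture, Bak1 at 473 ± 107 in captured and 112 ± 63.7 in hand-dissected MM (log2 difference 1.83, limma adjusted p = 0.00465) and Bok at 2149 ± 165 in captured and 1311 ± 274 in hand-dissected MM (0.72, 0.0336). The Bok call was lost without captured replicate 1 (0.0662), 2 (0.0587) or 4 (0.0794) and without hand-dissected replicate 5 (0.0920) or 7 (0.0776). Birc5, the mitotic inhibitor of apoptosis survivin, averaged 5793 ± 510.0 in captured and 2825 ± 560 in hand-dissected MM (log2 difference 1.04, limma adjusted p = 0.00325). Casp2, the caspase of the PIDDosome, averaged 17387 ± 494 in captured and 34538 ± 758 in hand-dissected MM (log2 difference -0.99, limma adjusted p = 0.000282). None of 8 tested BH3-only genes and none of 4 tested survival genes was called by limma here, with 3 and 0 at an unadjusted p below 0.05.

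Across all 16 arrays, the genes whose log2 signals most resembled those of each gene were described by Pearson's r. The search covered 9095 or 9096 genes with 1 symbol, those whose mean log2 signal was above the median of all such genes. The arrays share groups and dissection methods, so r also carries the differences between groups. Cdkn1a was most like Id4 (r = 0.943) and Dlgap5 (0.889), Bcl2l11 like Mex3b (0.921) and Slc40a1 (0.915), and Bcl2 like Dock5 (0.941) and Atp10a (0.903). Mcl1 was most like Acap2 (0.901), Bbc3 like Chst7 (0.916), Pmaip1 like Adm and Ercc4 (0.812 for Ercc4) and Mdm2 like Fbxo9 (0.819).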

How the data were processed

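Affymetrix mouse arrays with 45101 probe sets measured RNA of 16 samples in 4 groups. The deposited intensities are linear MAS5 signals, per the submitters' processing notes, with no version given there; from the values, the authors had scaled every array to a mean of 1500 after removing 2% of values at each tail. Such scaling assumes equal total expression. Amplification from the 3' end can shift probe sets by their place in the transcript. Arrays give no read depth, and their number limits the precision.

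After removal of 64 control probe sets, 34945 had 1 symbol in the platform annotation, 932 had several and 9160 had none; 34741 identifiers matched the RefSeq table of GRCm38.p6, which changed 0 symbols. Signals became log2(signal + 36.3), the offset being the 25th percentile of all values, which understates changes of dim genes. Probe sets were kept if they exceeded the array median on as many arrays as the smaller group has, or more, and were fitted with limma 3.58.1 in R 4.3.3 (lmFit, eBayes with intensity trend), each comparison on its own arrays, with Benjamini-Hochberg adjustment over all kept probe sets and a threshold of 0.05. Folds are ratios of mean signals, and SE and 95% intervals are limma's. Named list genes are at most the 3 with the largest difference per list and direction among those called; Mdm4, Bak1 and Btg2 in the null comparison were chosen after their values were seen. The script was tested on simulated data. Python 3.11.15, pandas 2.3.3, numpy 2.4.6 and matplotlib 3.10.9 handled tables and figures. Alternatives covered the offset, scaling, filter, variance model, array weights, pooled fit, probe sets, replicate numbers and each left-out array. The genes and lists were chosen with earlier results of these data known, and lists are described by counts, without a test.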

Additional observations from a re-analysis of the deposited data

Results flagged for a closer look

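Among 21 groups of 4 or 5 arrays examined for the 7 genes, 3 held an array far from the others. For normally distributed values, chance gives such an array in about 1 group in 20. The gaps were taken on linear signals, not on the log2 scale, and these need not be so distributed. Cdkn1a was 5075.6 on null replicate 4, against 629.1 to 1108.4 on the other nulls, and the gap took 0.892 of the group's range, above the critical 0.71 for 5 arrays. Pmaip1 was 497.2 on null replicate 2, against 3.4 to 117.3 on the other nulls, a gap of 0.769 of the range in a gene that is dim throughout. Bcl2l11 was 22738.9 on wild-type captured replicate 1, against 17110.5 to 17754.7 on the other captures, a gap of 0.886 of the range, above the critical value for 4 arrays. Null replicates 2 and 4 were not the array with the lowest correlation to its group.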

How the results depend on the processing

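Of 21 differences (7 genes in 3 comparisons), 12 kept direction and call under every alternative, 9 changed and 5 turned sign at least once. The 12 include Pmaip1 in both comparisons with captured MM, where it was not tested. Its only alternative there was the unfiltered fit that also gave its value, so it could not change. Cdkn1a, Bcl2l11 and Bcl2 in UB against MM were called in all 18 alternatives (1.18 to 2.88, -1.63 to -1.06 and -2.18 to -1.28). Bbc3 was called there in 5 of 18. Signs turned for Pmaip1 in UB against MM (array weights -0.25, 1 array left out -0.26 to 0.31), for Mdm2 (0.091) and Mcl1 (0.094) in null MM after median centring, for Bbc3 in null MM after quantile (0.16), median (0.17) and loess (0.20) scaling, and for Bcl2 in captured against hand-dissected MM (quantile 0.036, array weights 0.026, 1 array left out -0.24 to 0.23, mean of its probe sets 1.13). Trp53bp1 turned in the last comparison when its probe sets were averaged (-0.025). Calls of genes described here were 1 in null MM with array weights and 0 to 1 with 1 array left out, and in captured MM 2 after median centring, 0 without a filter, 0 in a 16-array fit, 1 (Bcl2, higher, in place of Cdkn1a) as means of probe sets and 0 to 1 with 1 array left out. Probe sets called, 5701 in UB, became 10132 with array weights, 3580 in a 16-array fit and 3951 to 7845 with 1 array left out. In null MM 411 (138 higher, 273 lower) became 207 after median centring (136, 71), 401 (158, 243) after quantile and 360 (164, 196) after loess scaling, 256 without a filter, 215 without trend, 1654 with array weights, 1793 in a 16-array fit and 60 to 1866 with 1 array left out, the highest without null replicate 1; median centring moved the median of all probe sets from -0.15 to 0.15, in UB from 0.022 to 0.16 and in captured MM from 0.11 to -0.083. In captured MM 5866 became 2811 in a 16-array fit and 3391 to 6037 with 1 array left out. Null and wild-type captures share replicate numbers, and the labels do not say that these pair arrays. Deviations of same-numbered arrays correlated at -0.005, 0.034, -0.047 and 0.074, against -0.167 to 0.23 for arrays with different numbers. Such values cannot settle whether the numbers pair arrays. With the replicate block 53 probe sets (23 higher, 30 lower) and 0 genes described here were called, and Cdkn1a stood at 1.45 (limma adjusted p = 0.210). Of named list genes, 10 of 16 calls in UB, 0 of 2 in null and 14 of 24 in captured MM held with any 1 array left out. Further probe sets of a gene were fitted in the reported setting only. The causes were not tested. Signals near the array median, as for Bbc3 and Pmaip1, limit what can be seen.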
